A study of Mus musculus with 9 samples.

Results

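The genes described are 10 members of the BCL-2 family, which sets whether a cell lives or dies at the mitochondrion. They are the rows of the deposited counts named *Mcl1*, *Bcl2l1*, *Bcl2*, *Bcl2a1a*, *Bcl2a1b*, *Bcl2a1d*, *Bcl2l11*, *Pmaip1*, *Bax* and *Bak1*, chosen by name from 55471 genes, and all 10 passed the filter that left 16260 genes for testing. RNA was sequenced from bone marrow-derived dendritic cells (BMDCs) of wild-type (WT) mice, which the study's methods give as female C57BL/6 animals, grown with GM-CSF. The 3 groups are BMDCs left unstimulated, BMDCs given LPS, a bacterial outer membrane component that activates Toll-like receptor signalling, and BMDCs given IFN-β, a type I interferon, and the treatments lasted 6 h. Each group has 3 libraries, called A, B and C here after the letters in the labels. GM-CSF cultures of bone marrow hold macrophage-like cells beside dendritic cells, and the sources used here do not tie a library to an animal. The p-values therefore set each difference only against the spread between these libraries, which may be technical.

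Pro-survival family members (MCL-1, BCL-XL from *Bcl2l1*, BCL-2, and A1 from the *Bcl2a1* genes) bind and hold back the proteins that open the outer mitochondrial membrane. The effectors BAX and BAK form the pore, cytochrome c leaves through it, and caspases are then activated. BH3-only proteins such as BIM (*Bcl2l11*) and NOXA (*Pmaip1*) start the process by occupying the groove of the pro-survival proteins, NOXA binding mainly MCL-1 and A1. In myeloid cells A1 is known as a target of NF-κB, and dendritic cells are known to lose BCL-2 as they mature.

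On GRCm38 in the GENCODE annotation, all 10 are protein-coding genes. *Mcl1* lies at chr3:95658788-95663176, *Bcl2l1* at chr2:152780668-152831728 and *Bcl2* at chr1:106538178-106714274. The A1 genes lie together at chr9:88956900-88962419 (*Bcl2a1a*), chr9:89199209-89207827 (*Bcl2a1b*) and chr9:88723285-88731914 (*Bcl2a1d*). *Bcl2l11* lies at chr2:128126038-128162547, *Bax* at chr7:45461697-45466898 and *Bak1* at chr17:27019810-27029009. Counts were made on whole genes, so exons and isoforms are not told apart.

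The mouse A1 genes are near-copies of each other, which bears on every value given for them. *Bcl2a1a*, *Bcl2a1b* and *Bcl2a1d* lie on chromosome 9 and have coding sequences of 519 bases that differ at 12 positions over the 3 genes. The first 180 coding bases (GRCm38, from the GENCODE transcripts) are printed because they hold 7 of those positions, shown in capitals.
Bcl2a1a: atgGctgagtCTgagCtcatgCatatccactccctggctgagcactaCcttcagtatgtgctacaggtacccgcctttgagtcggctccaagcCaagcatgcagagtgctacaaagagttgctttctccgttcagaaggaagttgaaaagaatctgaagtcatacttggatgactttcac
Bcl2a1b: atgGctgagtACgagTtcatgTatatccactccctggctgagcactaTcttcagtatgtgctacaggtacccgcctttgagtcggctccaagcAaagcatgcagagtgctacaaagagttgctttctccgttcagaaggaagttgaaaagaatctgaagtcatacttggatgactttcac
Bcl2a1d: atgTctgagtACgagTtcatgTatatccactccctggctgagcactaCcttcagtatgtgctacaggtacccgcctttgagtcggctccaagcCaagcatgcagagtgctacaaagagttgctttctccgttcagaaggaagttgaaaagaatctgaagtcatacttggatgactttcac
Of all the 100-base stretches in the transcript, the read length of the study, 43.5% in *Bcl2a1a*, 56.8% in *Bcl2a1b* and 54.7% in *Bcl2a1d* also occur in another transcript. The reads were paired, and a pair can be placed by either end, so these shares of single stretches can overstate the reads lost. The counter used by the authors leaves out reads that map to several places. Each of these genes may therefore have been counted on part of its sequence, and its split from its copies is uncertain. The exons of *Bcl2a1b* also share 401 bases (49.1% of its exon bases) with the annotated gene *Gm29094* on the same strand, which had 0 counts in every library. Reads on bases shared between genes may be assigned to neither, so the 0 counts do not show that *Bcl2a1b* lost none.

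The promoter windows of the A1 genes are printed because the 3 genes rose together under both stimuli. They run from 250 bases before to 50 bases after the RefSeq start site (GRCm38), and the capitals mark a PU.1 motif (GAGGAAGT) and a composite C/EBP-ATF motif (TGATGCAA).
Bcl2a1a promoter, chr9:88956670-88956969, plus strand: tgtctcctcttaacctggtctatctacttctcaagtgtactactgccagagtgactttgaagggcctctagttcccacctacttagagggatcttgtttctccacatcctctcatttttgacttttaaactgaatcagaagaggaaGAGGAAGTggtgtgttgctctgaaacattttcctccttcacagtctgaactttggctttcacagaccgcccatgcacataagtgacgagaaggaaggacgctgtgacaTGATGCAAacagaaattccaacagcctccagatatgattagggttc
Bcl2a1b promoter, chr9:89199023-89199322, plus strand: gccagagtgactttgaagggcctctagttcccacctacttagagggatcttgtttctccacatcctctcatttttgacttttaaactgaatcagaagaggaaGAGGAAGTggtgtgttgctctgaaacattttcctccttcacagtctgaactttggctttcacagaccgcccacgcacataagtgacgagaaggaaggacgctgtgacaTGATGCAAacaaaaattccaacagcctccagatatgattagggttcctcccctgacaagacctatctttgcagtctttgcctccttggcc
Bcl2a1d promoter, chr9:88731801-88732100, minus strand: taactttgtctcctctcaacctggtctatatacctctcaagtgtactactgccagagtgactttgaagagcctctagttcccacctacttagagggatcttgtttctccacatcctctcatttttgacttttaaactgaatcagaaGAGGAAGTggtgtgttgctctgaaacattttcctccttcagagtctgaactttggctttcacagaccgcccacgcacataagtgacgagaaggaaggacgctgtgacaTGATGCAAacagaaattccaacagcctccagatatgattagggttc
All 3 windows share an unbroken run of 84 bases. The PU.1 match lies 104 bases before the listed start site in *Bcl2a1a* and *Bcl2a1d* and 148 before it in *Bcl2a1b*, whose listed start is further downstream. These motifs were picked after the windows had been seen, and a match is a description, not a binding site. Of all 32851 RefSeq windows of this length, 3.20% hold the PU.1 letters and 0.895% the C/EBP-ATF letters on either strand.

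Windows of 9 of the 10 genes were taken, *Pmaip1* being left out, and made 12 windows in all, since *Bcl2l1* and *Bcl2l11* have several start sites. All were searched on both strands for the core letters of NF-κB (GGNNTTTCC, in 5.82% of all windows), ISRE (GAAANNGAA, in 8.56%), GAS (TTCNNNGAA, in 8.30%) and AP-1 (TGAGTCA, in 5.20%) letters, none of which contains another. NF-κB letters stood in the window of *Mcl1* (1 match, on the reverse strand) and in 1 window of *Bcl2l1* (2 matches, 1 on each strand). They stood in no window of the A1 genes or *Bak1*, which also rose under both stimuli with TMM scaling. The windows with matches are printed, the matches in capitals, because *Mcl1* and *Bcl2l1* rose under both stimuli with TMM scaling.
Mcl1 promoter, chr3:95658471-95658770, plus strand: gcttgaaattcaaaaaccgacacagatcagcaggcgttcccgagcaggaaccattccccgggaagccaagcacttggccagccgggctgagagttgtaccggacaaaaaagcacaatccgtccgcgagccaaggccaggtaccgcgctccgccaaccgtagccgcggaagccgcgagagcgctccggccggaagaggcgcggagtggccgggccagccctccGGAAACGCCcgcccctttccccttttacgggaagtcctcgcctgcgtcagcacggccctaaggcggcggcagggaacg
Bcl2l1 promoter, chr2:152830668-152830967, minus strand: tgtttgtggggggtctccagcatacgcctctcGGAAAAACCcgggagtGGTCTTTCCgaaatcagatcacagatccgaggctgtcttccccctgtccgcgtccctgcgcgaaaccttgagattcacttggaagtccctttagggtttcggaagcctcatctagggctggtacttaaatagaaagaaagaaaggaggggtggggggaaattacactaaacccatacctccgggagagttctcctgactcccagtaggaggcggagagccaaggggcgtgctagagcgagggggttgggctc
The *Bak1* window held the PU.1 letters, and the ISRE, GAS and AP-1 letters were not in the 12 windows.

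Libraries held 33425803 to 43735199 counts on genes. Levels are CPM, a gene's counts as a share of the TMM-scaled library, a scaling that corrects for a few very abundant genes. The stimulation markers followed the labels, with *Il12b* at 3.41 ± 0.70, 3615 ± 187 and 4.28 ± 0.77 CPM (SD, n = 3) in unstimulated, LPS and IFN-β libraries and *Ifit1* at 25.9 ± 14.8, 2289 ± 423 and 789 ± 92 CPM. Of 8 dendritic cell and macrophage markers, all were counted in every library, summing to 5951 to 8060 CPM, but *Flt3* had 178 counts at most. Other cell types were near 0 or low. B cell and T and NK cell markers summed to at most 0.495 and 0.215 CPM, and the erythroid gene *Hbb-bs* had 0 counts. The 3 plasmacytoid DC markers summed to 67.2 to 136.8 CPM unstimulated, 385.7 to 474.6 after LPS and 356.3 to 379.5 after IFN-β, nearly all from the interferon-induced *Bst2*, while *Siglech* had at most 1 count. The letters stood apart from each other. Libraries of letter A had the highest sum of 8 neutrophil markers in each group (21.0, 23.4 and 17.3 CPM, against 9.002 to 15.5 in letters B and C), with at most 10 counts of *Ly6g* and 2 of *Elane*, and the lowest sum of 6 mast cell and basophil markers. In bulk RNA, fewer cells of a type and less RNA per cell cannot be told apart.

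LPS changed 8 of the 10 genes (adjusted p-value under 0.05, edgeR's quasi-likelihood test over all tested genes), and 7 rose while *Bcl2* fell. Across all tested genes LPS called 68.2%, 32.8% as higher and 35.4% as lower. The median log2 fold change of the 10 genes was 0.69, against -0.04 over all tested genes. IFN-β changed 7 of the 10, all of them higher. *Bcl2*, *Bcl2l11* and *Bax* were not called, and the number lower was 0 also by DESeq2 and at an unadjusted p-value under 0.05. The 10 genes had a median of 0.56 against -0.02 over all tested genes. Across all tested genes IFN-β called 46.9%, 23.6% as higher and 23.3% as lower. These comparisons share the unstimulated libraries. With the letters as a block, LPS called 9 of the 10 and IFN-β 8 of the 10, the added genes being *Bax* and *Bcl2*, both lower, while calls over all tested genes also rose, to 73.5% and 56.3%. In the direct comparison of IFN-β with LPS, 6 of the 10 differed, 1 higher after IFN-β and 5 lower, where 49.1% of all tested genes differed (25.8% higher, 23.3% lower), and 6 also with the block, where 58% did.

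**Figure D1:**
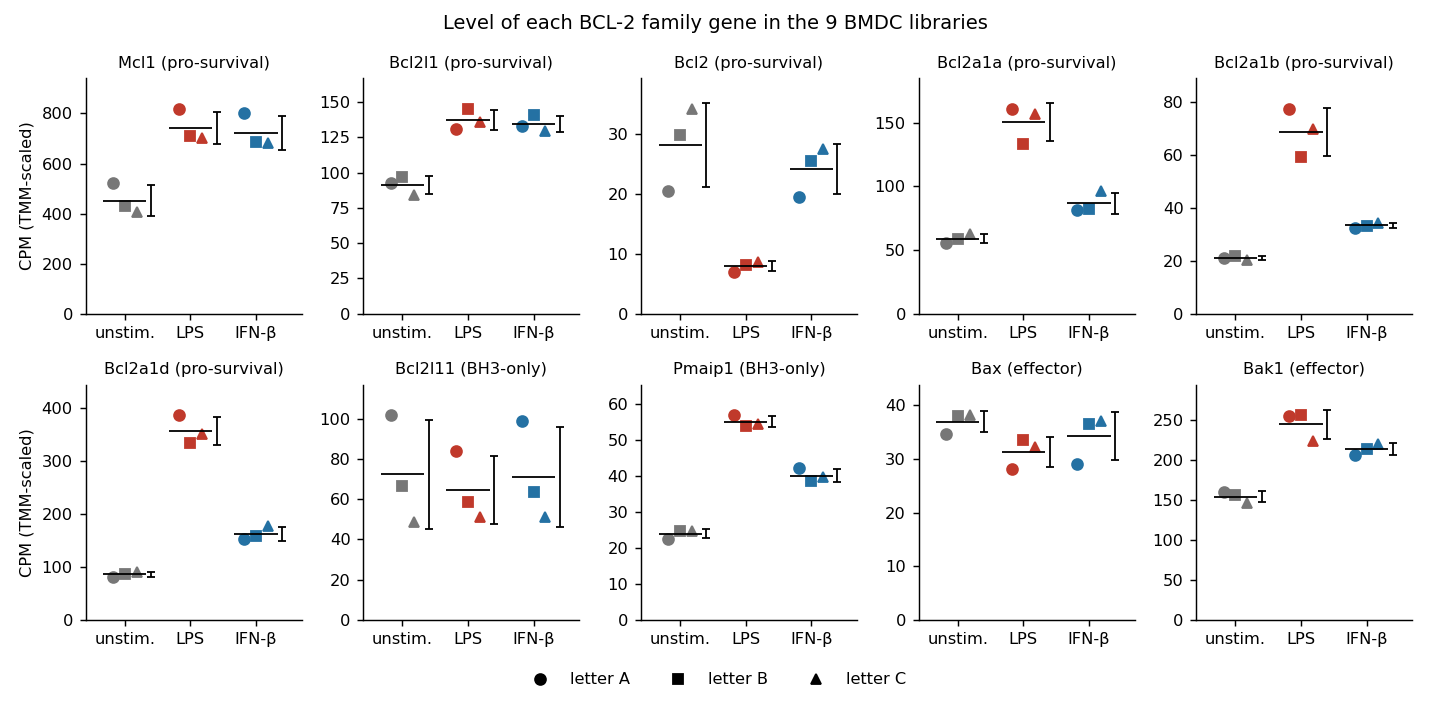
Level of each of the 10 genes (y axis, TMM-scaled CPM from 0, a separate scale per gene) in the 3 unstimulated, 3 LPS and 3 IFN-β libraries. Each marker is a library with its letter, the line is the mean and the bar the SD (n = 3). LPS libraries of *Bcl2* sit between 7.01 and 8.66 CPM, below all others, and *Bcl2l11* is highest in letter A of every group.

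Some of these calls rest on the TMM scaling, which moves the genes together. Under LPS the calls of *Bcl2*, the A1 genes and *Pmaip1* also held with scaling by library size alone. The LPS calls of *Bcl2l1*, *Mcl1* and *Bak1* were lost with it, and of the IFN-β calls only that of *Bak1*. Scaling by library size alone shifted the centre of all tested genes (their median log2 fold change) by -0.58 under LPS and -0.31 under IFN-β, and 21.9% of the LPS calls and 22.3% of the IFN-β calls over all genes were then higher, against 48.1% and 50.3% with TMM. Under that scaling LPS left 4 of the 10 genes higher and 3 lower (17.1% and 60.9% of all tested genes), and IFN-β left 6 higher and 2 lower (13.2% and 46%). In the direct comparison the balance turned, with 4 of the 10 higher after IFN-β and 3 lower (43.2% and 12.3% of all tested genes). Ratios of 2 genes within a library do not depend on the scaling and are given for this reason.

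The A1 genes showed the largest rises under LPS among the 10. *Bcl2a1d* stood at 81.0, 85.6 and 89.6 CPM in unstimulated libraries A, B and C, at 385, 332 and 350 CPM after LPS, and at 151, 158 and 177 CPM after IFN-β. The 3 groups did not overlap, with LPS on top and IFN-β between. The rise was 4.16-fold under LPS (log2 fold change 2.06 ± 0.09 SE, adjusted p = 1.32e-08) and 1.90-fold under IFN-β (0.93 ± 0.08, adjusted p = 1.28e-05, edgeR). Over 18 alternatives in processing the lowest log2 fold changes were 1.47 under LPS and 0.62 under IFN-β. The 2 responses differed by -1.13 ± 0.08 on the log2 scale (adjusted p = 1.7e-06, edgeR).

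*Bcl2a1b* had the lowest counted level of the 3 copies, 21.0 ± 0.8 CPM unstimulated (SD, n = 3), and rose 3.27-fold under LPS to 68.7 ± 9.2 and 1.59-fold under IFN-β to 33.3 ± 1.0. *Bcl2a1a* went from 58.9 ± 3.5 CPM to 150.2 ± 15.0 under LPS, 2.55-fold, and to 86.8 ± 8.2 under IFN-β, 1.47-fold. All 4 changes passed the test (adjusted p from 6.9e-08 to 0.000661, edgeR), without overlap of the groups. Over 18 alternatives the lowest log2 fold changes under LPS and IFN-β were 1.12 and 0.36 for *Bcl2a1b* and 0.76 and 0.25 for *Bcl2a1a*. Both genes were also lower after IFN-β than after LPS (log2 differences -1.04 for *Bcl2a1b* and -0.79 for *Bcl2a1a*). The ratios between the copies moved with the stimulus. Counts of *Bcl2a1d* per count of *Bcl2a1a* were 1.45 ± 0.02 without stimulation, 2.38 ± 0.14 after LPS and 1.87 ± 0.04 after IFN-β (SD, n = 3), and the groups of ratios did not overlap. Counts of *Bcl2a1d* per count of *Bcl2a1b* were 4.07 ± 0.33, 5.21 ± 0.36 and 4.86 ± 0.26, with both treated groups above the unstimulated libraries and overlapping each other. Summed into 1 row, the copies went from 165.3 ± 7.4 CPM to 574.6 ± 49.5 after LPS and 282.3 ± 22.7 after IFN-β (log2 fold changes 1.80 and 0.77 in a fit with that row).

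*Mcl1*, whose protein is short-lived, had the highest level per kilobase of annotated exon among the 10 genes in unstimulated BMDCs, on a scale that does not correct for the uncounted part of the A1 copies. Its libraries A, B and C gave 521, 429 and 406 CPM unstimulated, 818, 712 and 702 CPM after LPS, and 801, 684 and 683 CPM after IFN-β. Both treated groups lay above all unstimulated libraries and overlapped each other. The rise was 1.64-fold under LPS (log2 fold change 0.72 ± 0.11 SE, adjusted p = 0.000196) and 1.60-fold under IFN-β (0.68 ± 0.11, adjusted p = 0.000691, edgeR).

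*Bcl2l1*, which encodes BCL-XL, also rose under both stimuli. Unstimulated libraries A, B and C gave 92.8, 97.1 and 84.0 CPM, LPS libraries 131, 145 and 136, and IFN-β libraries 133, 141 and 130. The log2 fold changes were 0.59 ± 0.07 under LPS (adjusted p = 2.99e-05) and 0.56 ± 0.07 under IFN-β (adjusted p = 0.000136, edgeR). IFN-β and LPS did not differ past the threshold for either gene, with a difference of -0.03 for *Bcl2l1* (95% interval -0.19 to 0.13) and of -0.04 for *Mcl1* (-0.29 to 0.21), but when libraries were scaled by size alone both were higher after IFN-β past the threshold (0.24 for each gene, adjusted p = 0.0256 for *Bcl2l1* and 0.0411 for *Mcl1*). Scaled by size alone, the LPS rises were 0.01 for *Bcl2l1* and 0.14 for *Mcl1* and did not pass the test, whereas the IFN-β rises did (0.25 and 0.37). Counts of *Mcl1* per count of *Bcl2l1* were 4.96 ± 0.60, 5.43 ± 0.71 and 5.38 ± 0.60 in unstimulated, LPS and IFN-β libraries, and these ranges overlapped. Within each letter the ratio was higher after LPS and after IFN-β than without stimulation.

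*Bcl2*, the founding member of the family, alone among the 10 fell past the threshold under LPS. Unstimulated libraries A, B and C had 20.6, 30.0 and 34.2 CPM, LPS libraries 7.01, 8.07 and 8.66 CPM, and IFN-β libraries 19.5, 25.5 and 27.5 CPM. Every LPS library was below every other library, while unstimulated and IFN-β libraries overlapped. *Bcl2* was 3.57-fold lower under LPS (log2 fold change -1.84 ± 0.19 SE, adjusted p = 8.55e-06, edgeR), and within letters A, B and C the change was -1.49, -1.83 and -1.92.

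Under IFN-β the change of *Bcl2* was -0.23 ± 0.18 (95% interval -0.62 to 0.17, adjusted p = 0.33, edgeR). It passed the test in 4 of 18 alternatives, with the letters as a block (-0.21, adjusted p = 0.0277), without unstimulated A (-0.41, adjusted p = 0.0419), with letters B and C only (-0.28, adjusted p = 0.0438) and with scaling by size alone (-0.54, adjusted p = 0.0359). It was -0.07 at the other end when 1 library was left out. *Bcl2* was higher after IFN-β than after LPS by 1.61 ± 0.19 (adjusted p = 5.37e-05). It was lowest in letter A of every group, as was the summed level of the 6 mast cell and basophil markers (6.79 to 11.1 CPM unstimulated, 3.64 to 8.97 after LPS, 2.65 to 5.19 after IFN-β), of which *Kit* had up to 440 counts and *Mcpt8*, *Cpa3*, *Fcer1a* and *Ms4a2* at most 6. Their part in the result was not tested. The exons of *Bcl2* overlap those of the antisense gene *D630008O14Rik* by 558 bases, and that gene had at most 2 counts.

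**Figure D2:**
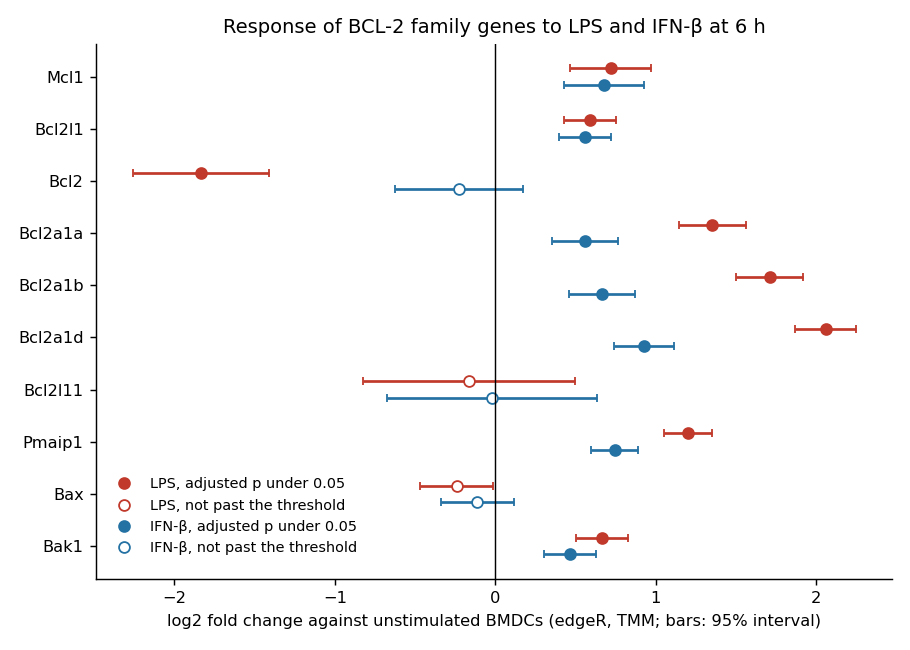
Log2 fold change of each gene against unstimulated BMDCs (x axis) for LPS (red) and IFN-β (blue), with 95% intervals from the edgeR model over 9 libraries. Filled points passed an adjusted p-value of 0.05. The A1 genes and *Pmaip1* lie further right under LPS than under IFN-β, *Mcl1* and *Bcl2l1* lie at like values for both, and *Bcl2* lies at -1.84 under LPS and -0.23 under IFN-β, all with TMM scaling.

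The balance of the pro-survival transcripts, taken per kilobase of annotated exon so that genes can be compared, was different under LPS. The A1 copies together held 55.9 ± 3.8% of the level of the 6 pro-survival genes in unstimulated BMDCs, 73.2 ± 1.1% after LPS and 57.9 ± 3.5% after IFN-β (SD, n = 3). *Mcl1* held 37.5 ± 4.0%, 23.4 ± 1.0% and 36.6 ± 3.5%, and *Bcl2l1* held 5.66 ± 0.41%, 3.25 ± 0.42% and 5.09 ± 0.40%. *Bcl2* held 0.881 ± 0.237% in unstimulated BMDCs, 0.0938 ± 0.0154% after LPS and 0.457 ± 0.078% after IFN-β. LPS libraries did not overlap the others for any of these shares. The lengths are unions of all annotated exons (9157 bases for *Bcl2*, 3418 for *Mcl1*, 817 to 863 for the A1 copies). Any reads that could not be placed on a single A1 copy were not counted, which would lower the A1 share.

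**Figure D3:**
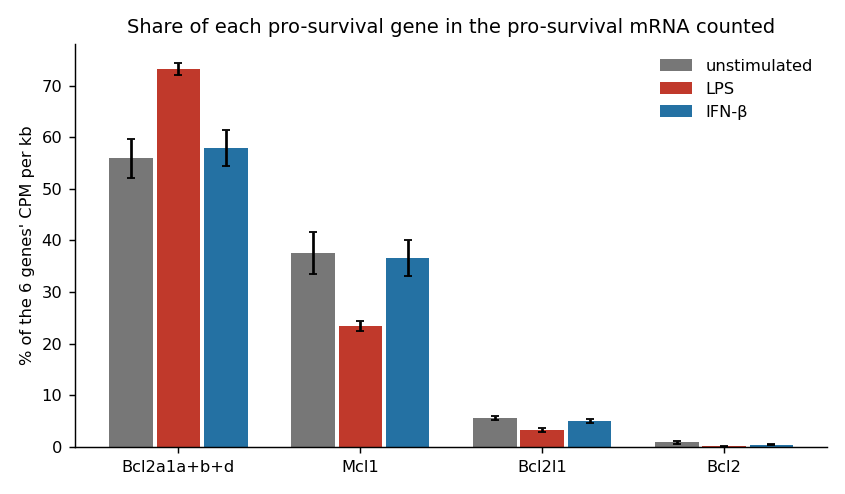
Share of each gene (y axis, % from 0) in the summed CPM per kilobase of the 6 pro-survival genes, with the 3 A1 copies added together. Bars are means of 3 libraries and error bars SD. After LPS the A1 bar stands at 73.2% and the *Mcl1* bar at 23.4%, against 55.9% and 37.5% unstimulated.

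Levels per kilobase had a different order in each group. The full exon length was used, so the A1 copies, which may have been counted on only part of it, may stand too low in this order. Whether *Mcl1* or *Bcl2a1d* was higher in unstimulated BMDCs therefore cannot be told. There the order ran *Mcl1*, *Bcl2a1d*, *Bcl2a1a*, *Bak1*, *Bcl2a1b*, *Bax*, *Bcl2l1*, *Bcl2l11*, *Pmaip1*, *Bcl2*, from 132 ± 18 CPM per kilobase for *Mcl1* down to 3.09 ± 0.76 for *Bcl2*. Among neighbours there, the libraries of *Bcl2l11* and *Pmaip1* overlapped and the rest did not. After LPS *Bcl2a1d* came first at 412 ± 31 followed by *Mcl1* at 218 ± 19, without overlap, and *Bcl2* stayed last at 0.864 ± 0.092. The neighbours that overlapped after LPS were *Bak1* with *Bcl2a1b* and *Pmaip1* with *Bax*. After IFN-β *Mcl1* (211 ± 20) and *Bcl2a1d* (188 ± 16) headed the order and overlapped.

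*Pmaip1* encodes NOXA, the BH3-only partner of MCL-1 and A1, and lies on chromosome 18. Its libraries A, B and C gave 22.4, 24.7 and 24.6 CPM unstimulated, 56.8, 53.9 and 54.3 CPM after LPS, and 42.1, 38.5 and 39.5 CPM after IFN-β. The groups stood well apart, and the spread within each was small. *Pmaip1* rose 2.30-fold under LPS (log2 fold change 1.20 ± 0.07 SE, adjusted p = 7.38e-08) and 1.67-fold under IFN-β (0.74 ± 0.07, adjusted p = 1.16e-05, edgeR). It was lower after IFN-β than after LPS (log2 difference -0.46, adjusted p = 0.000194, edgeR), but the difference was -0.18 with an adjusted p of 0.0589 when libraries were scaled by size alone. Counts of *Mcl1* per count of *Pmaip1* were 19.1 ± 3.7 unstimulated, 13.5 ± 0.8 after LPS and 18.0 ± 0.9 after IFN-β.

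*Bcl2l11* encodes BIM, which binds all the pro-survival proteins. Its libraries A, B and C gave 102, 66.3 and 48.7 CPM unstimulated, 83.8, 58.3 and 51.3 CPM after LPS, and 98.9, 63.5 and 51.0 CPM after IFN-β. The groups overlapped throughout, and in each of them letter A was highest and letter C lowest. The change was -0.16 ± 0.30 under LPS (95% interval -0.82 to 0.49, adjusted p = 0.639) and -0.02 ± 0.30 under IFN-β (-0.68 to 0.64, adjusted p = 0.964, edgeR). These intervals include the spread between letters. With the letters as a block the changes were -0.13 ± 0.06 SE under LPS (adjusted p = 0.0801) and -0.01 ± 0.06 under IFN-β (adjusted p = 0.869), and within letters A, B and C LPS moved it by -0.28, -0.19 and 0.07 and IFN-β by -0.04, -0.06 and 0.07. A change that misses the threshold does not show that *Bcl2l11* stayed level. With library unstimulated A left out the LPS change was 0.16 and the IFN-β change 0.30, and with letters B and C only they were -0.07 and -0.01. Scaled by size alone, the LPS change was -0.74 (adjusted p = 0.0247).

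The spread of *Bcl2l11* between letters was the widest of the 10 genes, with a coefficient of variation of 37.3%, 26.6% and 34.9% in the 3 groups. *Mcl1* was also highest in letter A of every group, and *Bcl2* and *Bax* were lowest there. The 2 tested genes most like *Bcl2l11* over the 9 libraries, by Pearson correlation of log2(CPM + 0.5), were *Atp2c2* (r = 0.97) and the neutrophil marker *S100a9* (r = 0.97), which had 25 to 239 counts. The sum of the 8 neutrophil markers (9.499 to 21.0 CPM unstimulated, 12.5 to 23.4 after LPS, 9.002 to 17.3 after IFN-β) was highest in letter A too. It was lowest in letter B of every group, whereas *Bcl2l11* was lowest in letter C. The part of this sum in the result was not tested. Counts of *Mcl1* per count of *Bcl2l11* went from 5.13, 6.47 and 8.34 without stimulation (libraries A, B and C) to 9.75, 12.2 and 13.7 after LPS, without overlap. After IFN-β they were 8.10, 10.8 and 13.4. As groups these overlapped the unstimulated values, but within each letter the ratio was higher after IFN-β.

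**Figure D4:**
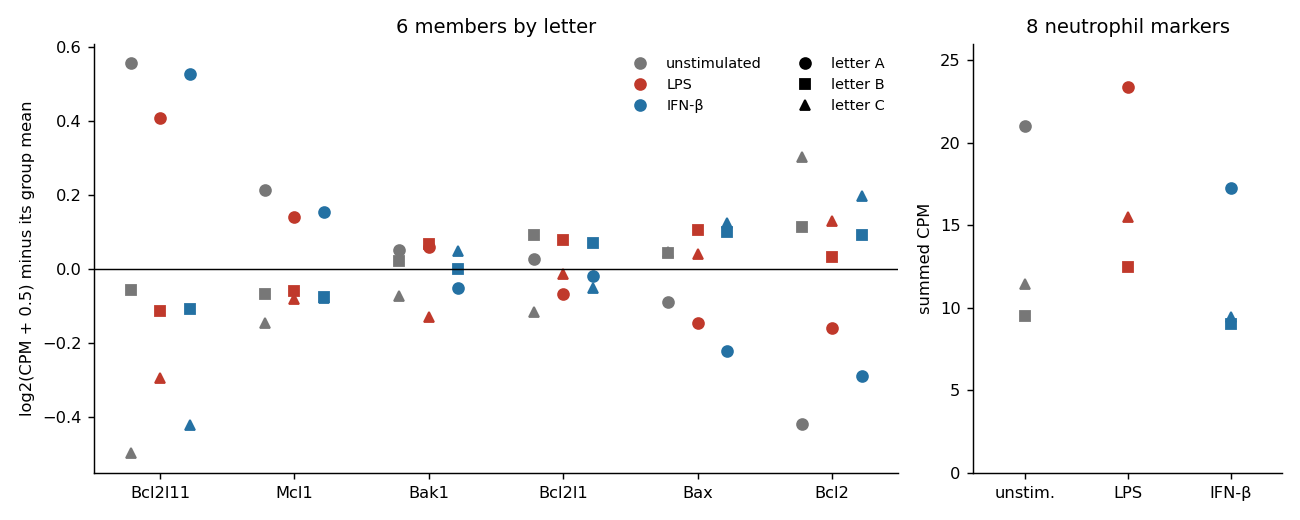
Left, deviation of 6 genes from their group mean (y axis, log2(CPM + 0.5)) by letter (marker) and group (colour). Right, summed CPM of 8 neutrophil markers in each library, from 0. Letter A is highest for *Bcl2l11* and *Mcl1* and lowest for *Bax* and *Bcl2* in all 3 groups, and its neutrophil sums are 21.0, 23.4 and 17.3 CPM.

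Of the pore-forming effectors, *Bak1* rose under both stimuli and *Bax* did not pass the test under either with TMM scaling. *Bak1* libraries A, B and C gave 160.0, 156.9 and 146.8 CPM unstimulated, 255, 256 and 224 CPM after LPS, and 206, 214 and 221 CPM after IFN-β. Both treated groups lay above the unstimulated libraries. *Bak1* rose 1.59-fold under LPS (log2 fold change 0.66 ± 0.07 SE, adjusted p = 1.2e-05) and 1.38-fold under IFN-β (0.47 ± 0.07, adjusted p = 0.000434, edgeR), and with scaling by size alone these rises were 0.08 and 0.16 and did not pass. IFN-β was below LPS (log2 difference -0.20, adjusted p = 0.0424), a call that was lost on leaving out any of 7 of the 9 libraries, all but unstimulated C and LPS C (adjusted p from 0.0516 to 0.116), and that turned to 0.08 in the other direction with scaling by size alone. The exons of *Bak1* overlap those of *Ggnbp1* on the opposite strand by 437 bases. *Ggnbp1* had at most 40 counts, and the strand setting of the counting is not given in the sources used here.

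*Bax* libraries A, B and C gave 34.7, 38.1 and 38.2 CPM unstimulated, 28.2, 33.6 and 32.2 CPM after LPS, and 29.1, 36.5 and 37.1 CPM after IFN-β. LPS libraries were all below unstimulated ones and IFN-β libraries overlapped both. The LPS change was -0.24 ± 0.10 (95% interval -0.47 to -0.01, adjusted p = 0.0594, edgeR). It passed with the letters as a block (-0.24, adjusted p = 0.00232), without unstimulated A (adjusted p = 0.0481) and without IFN-β A (adjusted p = 0.0219), and in 9 of 18 alternatives in all. Under IFN-β the change was -0.11 ± 0.10 (-0.34 to 0.12, adjusted p = 0.402). With scaling by size alone *Bax* was lower past the threshold under both stimuli (-0.82, adjusted p = 8.57e-05 under LPS, and -0.42, adjusted p = 0.0124 under IFN-β). *Gm45808*, which shares 192 exon bases with *Bax* on the same strand, had 0 counts, which does not show that *Bax* lost no reads there.

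Counts of *Bak1* per count of *Bax*, free of the scaling, went from 4.61, 4.12 and 3.85 without stimulation (libraries A, B and C) to 9.04, 7.62 and 6.95 after LPS and 7.08, 5.85 and 5.95 after IFN-β. Both treated groups lay above the unstimulated libraries. LPS overlapped IFN-β, but within each letter the ratio was higher after LPS than after IFN-β. Counts of *Bcl2l1* per count of *Bcl2* went from 4.51, 3.24 and 2.45 to 18.7, 18.0 and 15.7 after LPS and 6.80, 5.53 and 4.71 after IFN-β. All 3 groups were apart for that ratio. Over single genes, 9 of the 10 did not overlap between LPS and unstimulated libraries (72.4% of all tested genes), 7 between IFN-β and unstimulated (58.1%) and 6 between IFN-β and LPS (56.8%). The exact permutation test of 3 libraries against 3 (two-sided) gave p = 0.1 for each of these, the smallest it can give.

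**Figure D5:**
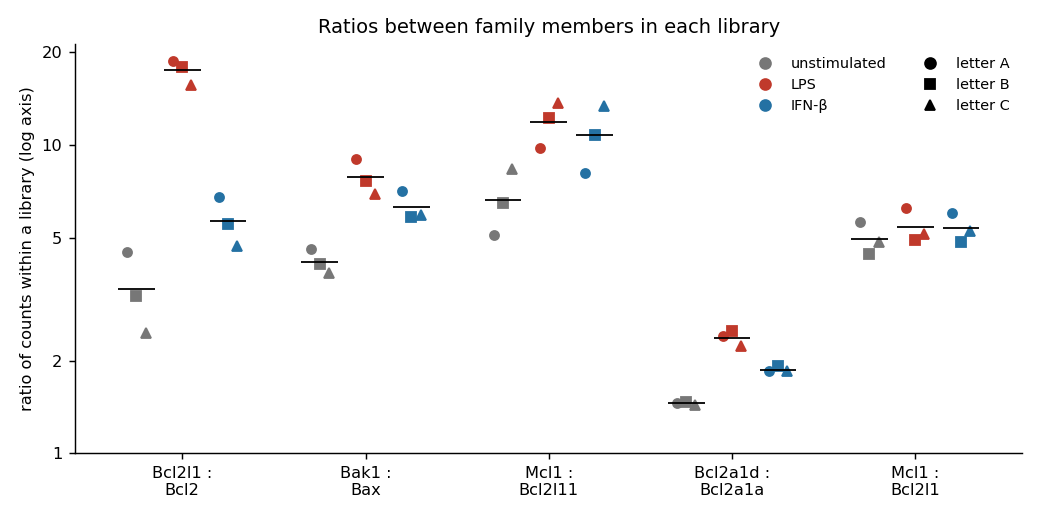
Counts of one gene divided by counts of another in the same library (y axis, log scale), for 5 pairs. Colours are groups, markers are letters and lines are means of 3 libraries. *Bcl2l1* to *Bcl2* stands at 15.7 to 18.7 after LPS against 2.45 to 4.51 unstimulated, and *Mcl1* to *Bcl2l1* overlaps across the 3 groups.

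Among the rest of the family, more of the tested genes fell than rose under LPS. Of 16 further family genes 12 were tested, and LPS raised 3 and lowered 8, while IFN-β raised 1 and lowered 3 (2 and 9, and 1 and 5, with scaling by library size alone). Over all tested genes LPS called 32.8% higher and 35.4% lower, and IFN-β 23.6% and 23.3%. With scaling by library size alone these shares were 17.1% and 60.9%, and 13.2% and 46%. *Bmf*, a BH3-only gene, fell from 48.5 ± 3.9 CPM to 9.32 ± 1.10 after LPS (log2 fold change -2.38 ± 0.12 SE, adjusted p = 3.9e-08) and to 22.7 ± 2.9 after IFN-β (-1.09 ± 0.11, adjusted p = 2.78e-05, edgeR). The BH3-only genes *Bad* and *Bbc3* (PUMA) also fell under LPS (-0.33 and -0.48). *Bid*, the BH3-only substrate of caspase-8, rose under both (1.10 and 0.80), as *Pmaip1* did. *Bcl2a1c*, the remaining A1 copy, had at most 72 counts and rose by 1.91 under LPS, and *Bcl2l2* (BCL-W) rose by 0.43, which turned to -0.15 when libraries were scaled by size alone.

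Downstream of the pore, 12 genes of the apoptosome and its caspases were tested, and LPS raised 5 and lowered 6 and IFN-β raised 6 and lowered 5 (5 and 6, and 5 and 5, with scaling by library size alone). The shares over all tested genes were 32.8% higher and 35.4% lower under LPS, and 23.6% and 23.3% under IFN-β. Scaled by library size alone, they were 17.1% and 60.9%, and 13.2% and 46%. *Cycs*, which encodes cytochrome c, rose by 1.46 and 0.97, and *Apaf1*, the scaffold of the apoptosome, by 0.86 and 0.54. *Casp9*, the initiator caspase on that scaffold, fell under LPS (-0.67) and rose under IFN-β (0.26, or -0.04 with scaling by size alone). The largest falls were those of *Endog*, a mitochondrial nuclease, under LPS (-2.10) and of *Dffa*, the inhibitor of the apoptotic DNase, under IFN-β (-0.92).

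All 9 listed genes of the inhibitor of apoptosis family changed. They were 7 higher and 2 lower under LPS and 8 higher and 1 lower under IFN-β, with medians of 0.85 and 0.59. With scaling by library size alone these counts were 5 higher and 4 lower under LPS and 7 higher and 1 lower under IFN-β. Over all tested genes LPS called 68.2% (32.8% higher, 35.4% lower) and IFN-β 46.9% (23.6% higher, 23.3% lower). Scaled by library size alone, 17.1% were higher and 60.9% lower under LPS, and 13.2% and 46% under IFN-β. *Birc3* (cIAP2) rose most under LPS (1.57 ± 0.08, against 0.54 under IFN-β), *Naip1* rose most under IFN-β (1.47 ± 0.19) and fell under LPS (-0.57), and *Xiap*, which blocks caspases directly, rose by 1.12 and 0.66. *Birc5* (survivin), a gene of dividing cells, fell most under both (-2.62 and -0.99). *Naip1*, *Naip2*, *Naip5* and *Naip6* are listed by family name, which does not show that they block apoptosis. With TMM scaling all of these rose under IFN-β, and all but *Naip1* under LPS.

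Of 11 tested genes that act on the proteins of the family after translation, LPS raised 7 and lowered 3, and IFN-β raised 6 and lowered 2 (5 and 5, and 4 and 4, with scaling by library size alone). Among all tested genes, 32.8% were higher and 35.4% lower under LPS, and 23.6% and 23.3% under IFN-β. Scaled by library size alone, these were 17.1% and 60.9%, and 13.2% and 46%. *Marchf5*, a ubiquitin ligase of the mitochondrial surface, rose most under both (2.86 ± 0.12 and 2.06 ± 0.11). *Usp9x*, which removes ubiquitin from MCL-1, rose by 0.87 and 0.39, and *Fbxw7*, a ligase subunit for MCL-1, by 0.66 and 0.51. *Dynll1* and *Dynll2*, dynein light chains that bind BIM and BMF, fell under LPS (-0.67 and -0.72). Under IFN-β *Dynll2* had the largest fall of the list (-0.32) and *Dynll1* stood at -0.09 (adjusted p = 0.333, edgeR).

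Of 14 tested transcription factors known to act on these genes, LPS raised 11 and lowered 2, and IFN-β raised 9, with 5 not past the threshold (9 and 3 under LPS, 6 and 5 under IFN-β, with scaling by library size alone). Among all tested genes, LPS raised 32.8% and lowered 35.4%, and IFN-β raised 23.6% and lowered 23.3%. Scaled by library size alone, these were 17.1% and 60.9%, and 13.2% and 46%. The NF-κB subunit genes *Nfkb1* (2.13 and 0.47), *Rel* (1.95 and 0.69) and *Rela* (1.06 and 0.44) rose under both. *Stat5a*, which acts downstream of the GM-CSF receptor, had the largest rise under LPS (2.68 ± 0.10) and stood at 0.03 under IFN-β (adjusted p = 0.844, edgeR). *Irf1* had the largest rise under IFN-β (2.01 ± 0.18, against 2.40 under LPS). *Foxo3*, known to drive *Bcl2l11*, had the largest fall under LPS (-1.05) and stood at 0.04 under IFN-β (adjusted p = 0.755), and *Trp53*, which encodes p53, fell under LPS (-0.55).

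p53 is known to induce *Pmaip1* and *Bax*, and 12 of its targets outside the family were tested. LPS raised 3 and lowered 8 of them, with a median log2 fold change of -0.98, and IFN-β raised 3 and lowered 6, with a median of -0.30 (3 and 9, and 2 and 7, with scaling by library size alone). Over all tested genes the shares were 32.8% higher and 35.4% lower under LPS, and 23.6% and 23.3% under IFN-β. Scaled by library size alone, they were 17.1% and 60.9%, and 13.2% and 46%. *Fas*, a death receptor gene, had the largest rise under LPS (1.88 ± 0.08) and *Cdkn1a*, the p21 cell cycle inhibitor gene, under IFN-β (0.60 ± 0.11, against 1.19 under LPS). *Phlda3* had the largest fall under both (-2.08 and -0.93). *Pmaip1* rose under both stimuli, whereas *Bax* was among the genes not called.

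The tested genes outside the 10 whose log2(CPM + 0.5) followed each gene most closely over the 9 libraries are given as a description, since the points share groups, letters and scaling. For *Bcl2* they were *Pou4f1* (r = 0.995) and *Zfp141* (r = 0.994), and for *Pmaip1* they were *Lnpk* and *Slc25a37* (r = 0.996 for both). For *Mcl1* they were *Capn5* (r = 0.997) and *Sgpl1* (r = 0.995), and for *Bcl2l1* they were *1700099I09Rik* (r = 0.990) and *Apol9b* (r = 0.987).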

How the data were processed

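RNA was sequenced from 9 libraries of mouse BMDCs, 3 in each of 3 groups. The authors trimmed adapters with Trim Galore (0.6.0 in the submitters' processing notes), mapped reads to mm10 (GRCm38) with STAR (2.7.8a in those notes, another version in the paper) and counted them on GENCODE genes. The deposited values are raw counts of each gene in each library, with no normalization and no filter. A library held 33425803 to 43735199 counts, and each of the 10 genes had at least 198 counts in every library. No molecular identifiers were used, so counting error is a lower limit of the error.

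Counts were scaled by TMM and filtered with filterByExpr in edgeR 4.0.16 (limma 3.58.1, R 4.3.3). A quasi-likelihood model with 1 term per group was fitted to all 9 libraries. It was also run on simulated counts with few changed genes, in LPS libraries only, and no effect of letter. That run cannot show how the model performs on these data. P-values were adjusted over 16260 genes by the Benjamini-Hochberg method, and an adjusted p-value under 0.05 was a call. The standard error is the absolute log2 fold change divided by the square root of F. Single-library log2 values used a pseudocount of 0.5 CPM. Exon lengths and coding sequences came from a later GENCODE release of the same build, and promoters from RefSeq GRCm38.p6.

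After subtraction of group means, libraries with the same letter correlated across genes in all 9 pairs (r from 0.115 to 0.47), against -0.40 to 0.03 for 18 pairs with different letters. The pairing comes from this check, since the labels do not say what the letters mark, and the block was an alternative. The other alternatives were DESeq2 1.42.0, scaling by library size alone and by upper quartile, no filter, at least 10 counts in every library, the 2 compared groups alone, the A1 copies summed, an adjusted p-value under 0.01, and each library left out. Letters B and C alone were added after seeing the data.

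The 10 genes and the other lists were chosen with earlier results of these data known. Named genes were the 10, any listed gene including the largest rise and fall per list and stimulus, the 2 genes most like 5 of the 10, genes overlapping their exons and 4 stimulation markers, of which *Tnf* (88.4 ± 15.9, 1592 ± 137 and 185 ± 40 CPM in unstimulated, LPS and IFN-β libraries) and *Mx1* (129 ± 16, 2578 ± 210 and 1355 ± 112 CPM) are given only here. Some genes that this rule takes are not reported here.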

Additional observations from a re-analysis of the deposited data

How the results depend on the processing

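Under the alternatives, the number of the 10 genes called was 6 to 9 for LPS, 5 to 8 for IFN-β and 4 to 7 for IFN-β against LPS, and the number of all genes called stayed within 1.5 times its value in every case. The lowest of these member counts came with the A1 copies summed into 1 row, which leaves 8 members. Of 540 recomputed log2 fold changes of single genes, 498 kept their direction and their side of the threshold, 15 lost the call, 16 gained one and 11 changed sign. With the letters as a block, 9 and 8 genes were called for LPS and IFN-β and 6 for IFN-β against LPS. The block added *Bax* under LPS and *Bcl2* under IFN-β and changed no other call among the 10. Scaling by library size alone reversed the differences between IFN-β and LPS for *Bcl2l1* (0.24, adjusted p = 0.0256), *Mcl1* (0.24, adjusted p = 0.0411) and *Bak1* (0.079, adjusted p = 0.34), the first 2 then being called higher after IFN-β, since it moved the median of all genes by 0.27 there, and 77.9% of all calls were then higher after IFN-β, against 52.5%. It also moved 17 of 30 group levels per kilobase by more than the SD, against 1 of 30 for upper-quartile factors. With 1 library left out, *Bcl2l11* ranged from -0.40 to 0.16 under LPS, from -0.34 to 0.30 under IFN-β and from -0.17 to 0.37 between them. *Mcl1* ranged from -0.13 to 0.024 and *Bcl2l1* from -0.072 to 0.0042 between IFN-β and LPS, none of them called with 1 library left out. The alternatives gave an adjusted p-value for *Bax* under LPS from 8.57e-05 to 0.2. In the fit without the letters, with 3 libraries a group, the spread of *Bcl2l11* between letters enters its standard error. That error was smaller with the letters as a block. The gene had 1670 to 4221 counts in a library.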
